A study of Mus musculus with 6 samples.

Results

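The fibroblast growth factor (FGF) system was examined in the brains of mice irradiated on the head. Its members were taken from the deposited table by gene name: every gene called Fgf with a number, the receptors Fgfr1 to Fgfr4 and Fgfrl1, the co-receptor Klb, the adaptor Frs2, and the inhibitors Spry1 to Spry4, Spred1 and Spred2. These were 35 of the 23057 genes in the table. RNA was sequenced from 6 brains of C57BL/6 mice, each perfused with saline and dissected 30 days after treatment. The 3 mock mice were mock-irradiated, and the heads of the 3 irradiated mice received 10 Gy of X-rays through a collimator with a field 10.08 mm across. No genotype, agent or age separates the groups in the labels, and neither the age nor the sex of the mice is given in the sources used here.

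FGFs are signalling proteins that bind receptor tyrosine kinases on the cell surface together with heparan sulfate. The activated receptor works through the adaptor encoded by Frs2 and the RAS-MAPK relay, and Sprouty and Spred proteins restrain that relay. A separate branch of the family, the FGF homologous factors, stays inside the cell and binds voltage-gated sodium channels instead of receptors. In the adult brain the system is known for roles in synapse formation, neuronal excitability, glial identity and myelin growth.

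The values are FPKM, that is, fragments per kilobase of transcript scaled to a library's mapped total, so levels of different genes are compared here per length. The labels give about 30 to 40 M reads of 75 nucleotides per library, and the depth of each library is otherwise unknown. Values of single mice are listed in the order of their replicate numbers. The 14585 genes averaging 0.5 FPKM or more across the 6 mice were tested. Markers of brain regions differed widely between libraries that are all labelled as whole brain. All 10 of 10 cerebellar markers fell, with a summed level of 966 to 1330 FPKM in the mock mice and 35.3 to 76.7 FPKM in irradiated libraries, and Gabra6, the receptor subunit of cerebellar granule cells, was listed at 0 in irradiated library 2. The 7 markers of neocortex and telencephalon summed to 111 to 261 FPKM in the mock mice and 420 to 806 FPKM in irradiated libraries. The 4 olfactory bulb markers summed to between 128 and 154 FPKM in mock 1, mock 3 and irradiated 1, and to between 6.14 and 9.83 FPKM in the others. Regional makeup and irradiation cannot be told apart for any difference described below, nor can fewer cells of a type be told apart from less RNA per cell.

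Irradiated brains had more Fgf13 RNA and less RNA of the ligands Fgf1 and Fgf7 and of the receptor Fgfr2. The inhibitors of the pathway gave no call. Of the 35 members, 23 passed the filter and 12 did not. Among the 23 tested, 1 was higher and 3 were lower (limma on log2 of FPKM + 0.5, Benjamini-Hochberg adjusted p under 0.05 over all genes tested), or 17.4% against 7.72% of all genes tested. By direction the background was 3.48% higher and 4.24% lower. The 3 irradiated libraries lay wholly below the mock range for 9 members and wholly above it for 2, together 47.8% of those tested. Among all genes tested such separation held for 31.5%, that is, 13.7% above and 17.7% below mock. The median log2 change was -0.38 over the 23 members and -0.02 over all genes tested. Of the 23 changes 20 were negative, as were 7553 of all 14585 genes tested.

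**Figure D1:**
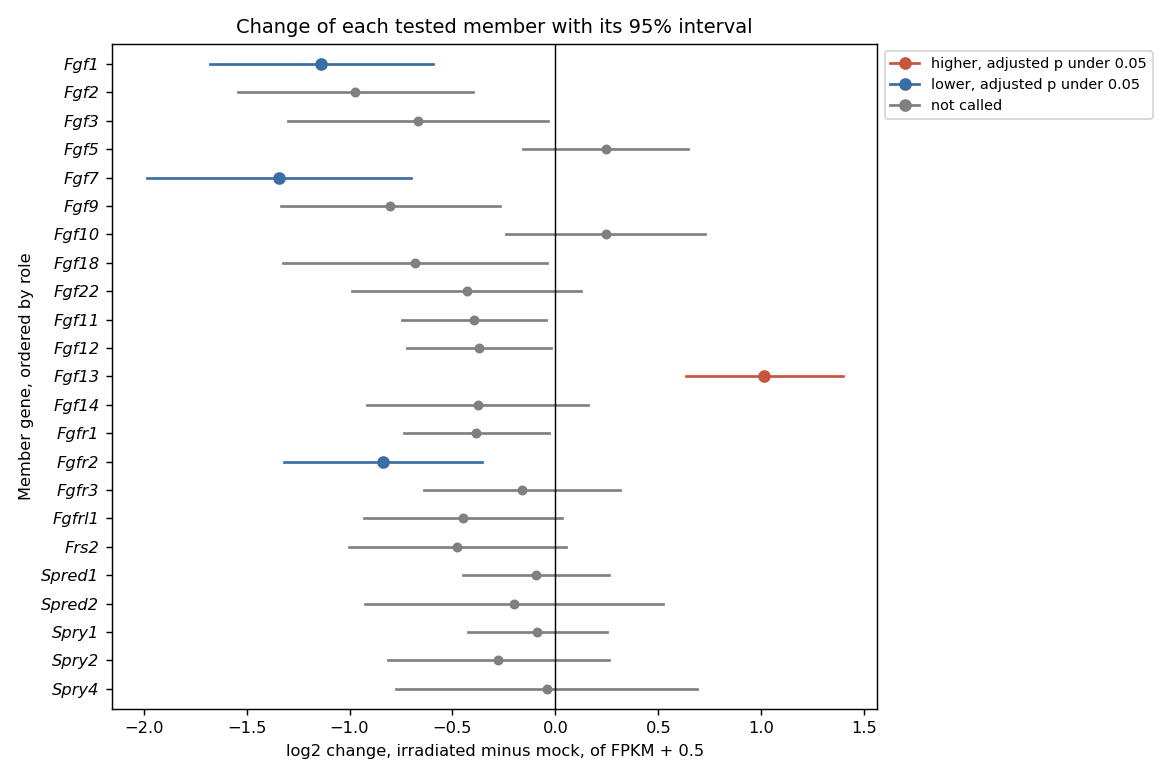
Log2 change of each tested member, irradiated minus mock, on the scale of FPKM + 0.5 (points) with its 95% interval from limma (bars), ordered by role and coloured by call. Fgf13 lies at 1.01, while Fgf1, Fgf7 and Fgfr2 lie between -1.34 and -0.84, and the intervals of all 5 feedback inhibitors cross 0.

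The count of members that were lower depended on single libraries. It was 1 (Fgf7) without mock 1, without mock 2, without mock 3 or without irradiated 2, 0 without irradiated 3, and 5 without irradiated 1, where Fgf9 and Fgf18 joined. Fgf13 was the higher member in each of these fits. The number of lower genes over all 14585 tested also moved, from 618 in the main fit. It was 254, 291 and 344 without mock 1, mock 2 and mock 3. Without irradiated 1, irradiated 2 and irradiated 3 it was 684, 534 and 259. Levels among the tested members spanned a wide range, from a mean of 0.685 FPKM for Fgf5 to 51.2 FPKM for Fgfr3, and 19 of the 35 members reached 1 FPKM in every library.

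**Figure D2:**
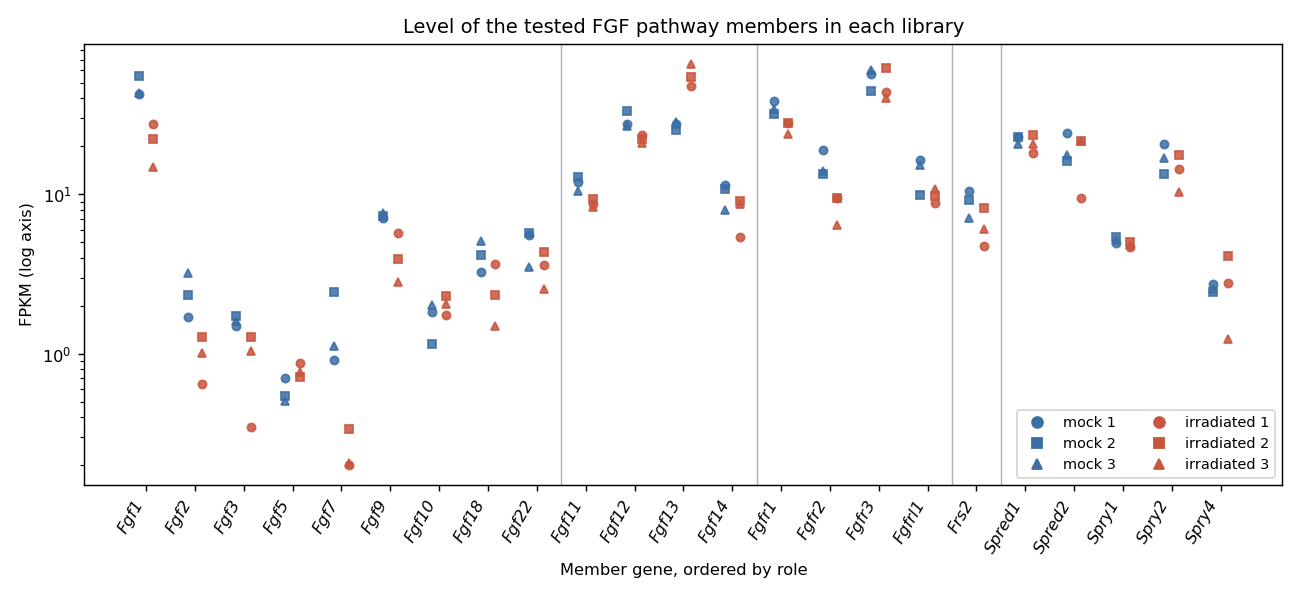
FPKM of the 23 tested members in each of the 6 libraries (log axis), ordered by role, with vertical lines between the roles. Fgf1, Fgf13 and Fgfr3 reach the highest levels, and the 3 irradiated libraries of Fgf13 lie above its 3 mock libraries.

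Among the secreted ligands, Fgf1 was the most abundant and fell. Fgf1 encodes acidic FGF, which leaves cells without a signal peptide and can bind every FGF receptor (chromosome 18, 38838672 to 38929470, RefSeq, build GRCm38.p6, the assembly that mm10 represents). It was at 42.7, 55.0 and 43.1 FPKM in the mock mice, against 27.7, 22.3 and 14.8 FPKM in the irradiated mice. The groups did not overlap, mock 2 was the highest library and irradiated 3 the lowest. The mean went from 46.9 ± 6.97 to 21.6 ± 6.48 FPKM (SD, n = 3 each), with a log2 change of -1.14 (SE 0.24, 95% interval -1.68 to -0.60, limma adjusted p = 0.027). The call was lost without mock 1 (adjusted p = 0.070), mock 2 (0.092), mock 3 (0.059), irradiated 2 (0.051) or irradiated 3 (0.069), with log2 changes from -1.20 to -0.89.

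Fgf7, also called keratinocyte growth factor and known in the hippocampus as an organizer of inhibitory synapses, fell from a low level (chromosome 2, 126034658 to 126091185). It was at 0.917, 2.44 and 1.12 FPKM in the mock mice, against 0.200, 0.339 and 0.205 FPKM in the irradiated mice. Every irradiated library was below every mock library, and mock 2 stood above the other mock libraries. The mean in irradiated libraries was 0.166 times that in mock libraries (0.248 ± 0.0786 against 1.49 ± 0.825 FPKM, SD, n = 3 each). The log2 change was -1.34 (SE 0.28, limma adjusted p = 0.027), a scale that understates changes of low genes. It was not called without irradiated 3 (adjusted p = 0.095), and without mock 2 it was -1.03 (adjusted p = 0.044). The summed level of 6 fibroblast markers, a cell type known to make Fgf7 in many tissues, was 35.6 to 36.7 FPKM in the mock mice and 46.3 to 61.5 FPKM in irradiated libraries, with 1 of the 6, Dcn, higher (limma). Dcn was also the largest part of that sum in every library, and its mean was 2.05 times the mock mean. The other 5 each overlapped between the groups, and the mean of Col1a2 was 0.819 times that in mock. Those of Col1a1, Col3a1, Lum and Slc6a13 were 1.47, 1.45, 1.21 and 1.13 times. The part of these markers in the Fgf7 difference was not tested.

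The other secreted ligands gave no call, although several were separated between the groups. Fgf2, basic FGF, which astrocytes make in the adult brain, was at 1.69, 2.34 and 3.19 FPKM in the mock mice, against 0.641, 1.26 and 1.01 FPKM in the irradiated mice. Its groups did not overlap, and its log2 change of -0.97 lay at the threshold (SE 0.25, 95% interval -1.54 to -0.40, limma adjusted p = 0.052). It passed with a pseudocount of 1 (adjusted p = 0.0496), with median centring (0.048) and with robust empirical Bayes (0.047). Under the other 13 of 16 alternatives Fgf2 was not called, with limma adjusted p up to 0.14. In GENCODE M21 its exons share 640 bases with Nudt6 on the opposite strand, and whether the authors' counting used strand is not given in the sources used here.

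Fgf9, a ligand of neurons and a glial mitogen, was at 7.11, 7.34 and 7.65 FPKM in the mock mice, against 5.74, 3.94 and 2.80 FPKM in the irradiated mice. Mock libraries were close together and all above the irradiated ones, which spread more widely. The log2 change of -0.80 did not pass (SE 0.23, limma adjusted p = 0.073). It was called without irradiated 1 (log2 change -1.04, adjusted p = 0.015), with library weights (-0.94, 0.018) and with mock 2 and irradiated 1 left out together (-1.04, 0.024). Under the other 13 of 16 alternatives Fgf9 was not called, with limma adjusted p up to 0.22. Fgf18, a ligand of the Fgf8 subfamily, differed by -0.68 on the log2 scale (SE 0.28, limma adjusted p = 0.17, not called) and its groups overlapped, with irradiated 1 at 3.67 FPKM between mock 1 at 3.27 and mock 2 at 4.17 FPKM. Without irradiated 1 it was called (log2 change -0.95, limma adjusted p = 0.045), but not under the other 15 of 16 alternatives (adjusted p up to 0.45).

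The remaining tested ligands stayed further from the threshold. Fgf3, best known from the development of the hindbrain and inner ear, was at 1.49, 1.72 and 1.60 FPKM in the mock mice, against 0.347, 1.27 and 1.04 FPKM in the irradiated mice. The groups did not overlap, irradiated 1 lay far below the others, and its log2 change was -0.67 (SE 0.28, limma adjusted p = 0.18). Fgf22, a presynaptic organizer of excitatory synapses, was at 5.52, 5.68 and 3.47 FPKM in the mock mice, against 3.62, 4.33 and 2.53 FPKM in the irradiated mice, with overlapping groups and a log2 change of -0.43 (adjusted p = 0.30). In the hippocampus it is studied as the counterpart of Fgf7.

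Fgf5 and Fgf10 had positive changes that were not called. Fgf5, a ligand known for ending hair growth, was at 0.707, 0.545 and 0.506 FPKM in the mock mice, against 0.870, 0.711 and 0.771 FPKM in the irradiated mice. Those groups did not overlap, by the margin of 0.707 against 0.711 FPKM, and the log2 change was 0.24 (95% interval -0.16 to 0.65, limma adjusted p = 0.41). Fgf10, which tanycytes of the hypothalamus make, was at 1.66 ± 0.458 FPKM (SD, n = 3) in the mock mice and at 2.03 ± 0.282 FPKM in the irradiated mice, with mock 2 the lowest library at 1.15 FPKM (log2 change 0.24, adjusted p = 0.49).

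Summed over the 18 secreted and endocrine ligands, the level was 66.5, 81.0 and 69.0 FPKM in the mock mice, against 45.9, 39.7 and 27.7 FPKM in the irradiated mice. Fgf1 made up 64.2%, 67.8% and 62.5% of that sum in the mock mice and 60.3%, 56.3% and 53.4% in the irradiated mice, so it remained the bulk of the ligand RNA in every library. The 17 ligands other than Fgf1 summed to 23.8 to 26.1 FPKM in the mock mice and 12.9 to 18.2 FPKM in irradiated libraries. Neither sum overlapped between the groups. These sums were not tested.

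Of the 4 FGF homologous factors, Fgf13 rose and the other 3 did not pass. Fgf13 encodes a factor that binds the cytoplasmic tail of sodium channels and also microtubules in growing neurons (chromosome X, 59062139 to 59585572). It was at 27.5, 25.4 and 28.6 FPKM in the mock mice, against 47.7, 54.1 and 65.6 FPKM in the irradiated mice. Mock values lay close together and far below the irradiated ones, of which irradiated 3 was the highest. The mean in irradiated libraries was 2.05 times that in mock libraries (55.8 ± 9.06 against 27.2 ± 1.62 FPKM, SD, n = 3 each). The log2 change was 1.01 (SE 0.17, 95% interval 0.63 to 1.40, limma adjusted p = 0.010). It was called under each of the 16 alternatives tried, with log2 changes from 0.89 to 1.12 and adjusted p from 0.0032 to 0.045. Of the markers of hippocampus, where Fgf13 is also expressed, 4 of 8 were higher (limma). All 8 summed to 97.2 to 119 FPKM over the mock mice and 187 to 269 FPKM over the irradiated mice. Of those not called, the mean of Prox1 was 0.944 times that in mock. Those of Cabp7, the largest part of the mock sum, Amigo2 and Wfs1 were 1.18, 1.35 and 2.11 times. Only Wfs1 among these was without overlap. The 6 general markers of neurons summed to 2288 to 2689 FPKM and to 2235 to 2661 FPKM, with overlap. Snap25 was the largest part of that sum, and single markers differed in direction, with 0 called. Snap25 and Stmn2 were at 0.857 and 0.806 times the mock mean, and Map2 at 1.27 times, each without overlap. Syt1, Rbfox3 and Tubb3 were at 1.82, 1.15 and 1.13 times, with overlap. The part of these regions in the Fgf13 difference was not tested.

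Fgf13 has 4 start sites in RefSeq, and alternative first exons are known to give the protein different beginnings. The deposited FPKM do not divide its RNA among them. The upstream sequences of its outermost start sites are shown because they differ in kind, and that of Fgf7 because its level moved the other way. The distal start is listed by RefSeq, but the bases after it were not found in a GENCODE M21 transcript of Fgf13, whereas those after the other starts and that of Fgf7 were. Each line holds the 100 bases before the start site on the gene's strand (RefSeq, GRCm38.p6), and capitals mark CpG pairs.
Fgf13, distal start (minus strand, chrX:59585573-59585672): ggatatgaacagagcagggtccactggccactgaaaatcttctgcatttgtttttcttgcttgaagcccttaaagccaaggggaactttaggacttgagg
Fgf13, proximal start (minus strand, chrX:59134437-59134536): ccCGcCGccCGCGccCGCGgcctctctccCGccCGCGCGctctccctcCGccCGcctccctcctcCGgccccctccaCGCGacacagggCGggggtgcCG
Fgf7 (plus strand, chr2:126034558-126034657): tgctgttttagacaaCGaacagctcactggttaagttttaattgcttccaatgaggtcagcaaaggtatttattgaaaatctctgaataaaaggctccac
Over the 250 bases before each start, the distal Fgf13 window held 2 CpG pairs and 45.6% G and C, the proximal one 31 CpG pairs and 74.4%, and the Fgf7 window 6 CpG pairs and 43.6%. The inner Fgf13 starts, not shown, also differed. That at 59567348, next to the distal one, held 33 CpG pairs and 74.8%, and that at 59166088 held 6 and 40.4%. Of the 32851 promoter windows in the table, 5.19% held at least 31 CpG pairs and 81.2% held at least 2, and the median was 6.

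The other homologous factors were each lower in mean without passing the test. Fgf12, which tunes sodium channel inactivation, was at 27.4, 33.1 and 26.6 FPKM in the mock mice, against 23.6, 22.2 and 21.1 FPKM in the irradiated mice, with groups that did not overlap (log2 change -0.37, SE 0.15, limma adjusted p = 0.18). Fgf11, the least studied of the 4, ranged from 10.4 to 12.8 FPKM over the mock mice and was at 8.73, 9.37 and 8.27 FPKM in the irradiated mice, again without overlap (log2 change -0.40, SE 0.15, adjusted p = 0.15). Fgf14, the factor whose loss causes a cerebellar ataxia, overlapped between the groups, at 11.4, 10.8 and 7.91 FPKM in the mock mice, against 5.36, 9.06 and 8.71 FPKM in the irradiated mice (log2 change -0.38, SE 0.23, adjusted p = 0.35). Its mean in irradiated libraries was 0.768 times the mock mean. Cerebellar neurons are rich in Fgf14, and the part of the cerebellar markers, which were lower in the same libraries, was not tested.

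Within a library the balance among the homologous factors can be read free of library scaling. Fgf13 made up 35.1%, 30.9% and 38.8% of the summed FPKM of the 4 genes in mock libraries and 55.9%, 57.1% and 63.3% in irradiated ones. Fgf12 made up 35.0%, 40.3% and 36.2% in the mock mice and 27.6%, 23.5% and 20.3% in the irradiated mice. Fgf12 and Fgf13 were thus about level in mock libraries, while Fgf13 alone exceeded the other 3 together in each irradiated library. The sum of the 4 was 73.6 to 82.1 FPKM in the mock mice and 85.4 to 103.7 FPKM in irradiated libraries.

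**Figure D3:**
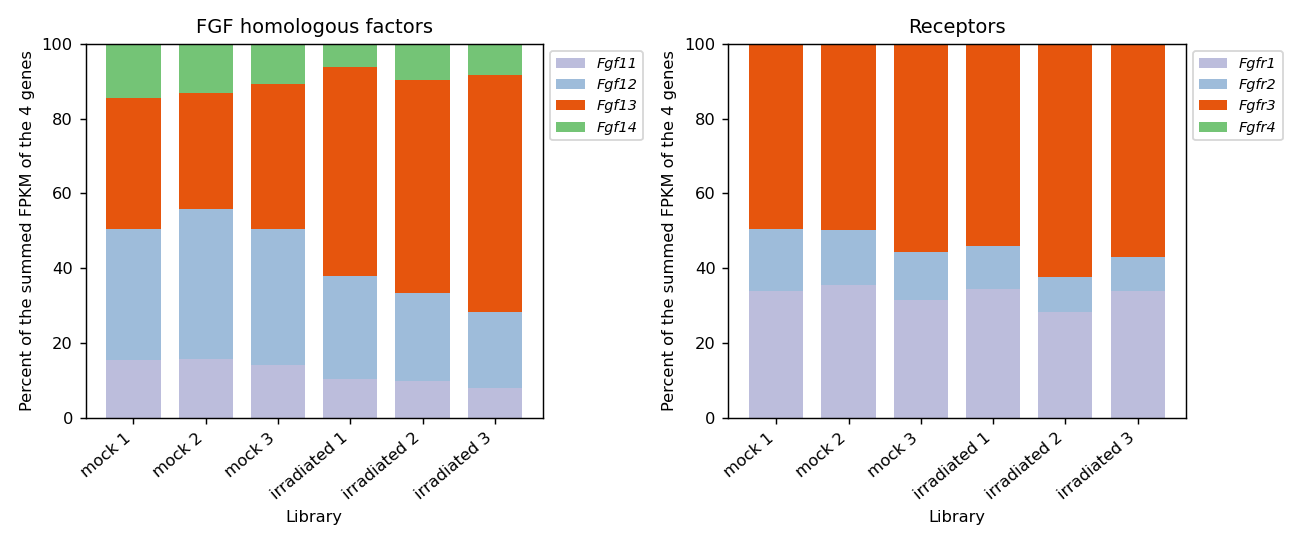
Percent of the summed FPKM of the 4 FGF homologous factors (left) and of the 4 receptors (right) that each gene makes up, 1 bar per library. Fgf13 takes 30.9% to 38.8% in mock and 55.9% to 63.3% in irradiated libraries, and Fgfr4 is too low to be visible.

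Among the channel genes that these factors bind or that accompany them, 1 of 8 rose and 1 fell. Together this was 25%, against 7.72% of all genes tested. Scn3b, an auxiliary beta subunit, went from 13.5, 9.65 and 13.9 FPKM in mock to 31.7, 34.3 and 42.8 FPKM in irradiated libraries (log2 change 1.52, SE 0.20, limma adjusted p = 0.0033). Scn4b, the beta subunit known for resurgent current in Purkinje cells, fell from a mean of 66.8 ± 3.77 FPKM to one of 27.0 ± 9.18 FPKM (SD, n = 3), by 1.35 on the log2 scale (SE 0.25, adjusted p from limma = 0.017). It was not called without mock 1 (adjusted p = 0.059) or mock 2 (0.065). Among the pore-forming subunits no call was made, and their values differed in direction. Scn1a, the channel of fast-spiking interneurons, was lower in all 3 irradiated libraries than in any mock library, at 29.6 ± 3.80 FPKM in mock and 16.2 ± 7.12 FPKM after irradiation (SD, n = 3). Its log2 difference was -0.93 (SE 0.28, limma adjusted p = 0.077), and it was called without irradiated 2. Scn8a, the main channel of the axon initial segment, overlapped between the groups, at 24.1 ± 3.83 and 22.3 ± 8.02 FPKM.

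Of the receptors, Fgfr2 fell and the rest were not called. Fgfr2 encodes a receptor that oligodendrocytes and astrocytes carry and that is known to promote myelin growth (chromosome 7, 130162451 to 130266808). Fgfr2 stood at 18.8, 13.3 and 14.0 FPKM in the mock mice, against 9.45, 9.42 and 6.40 FPKM in the irradiated mice. Both groups were separate, with mock 1 the highest and irradiated 3 the lowest library. The log2 change was -0.84 (SE 0.21, 95% interval -1.32 to -0.36, limma adjusted p = 0.048). In GENCODE M21 its exons share 314 bases with Ctbp2 on the same strand. This call was at the threshold and was lost without mock 1 (adjusted p = 0.16), mock 2 (0.088), mock 3 (0.090), irradiated 2 (0.064) or irradiated 3 (0.16), and also with a pseudocount of 0.1 (0.051), no filter (0.078), median centring (0.055) or quantile normalization (0.053). The log2 change ranged from -1.02 to -0.66 over the alternatives.

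Summed markers of the cells that carry Fgfr2 were lower in the irradiated libraries, while single markers differed in direction. The 8 oligodendrocyte markers summed to 4965 to 5979 FPKM in the mock mice and 2317 to 4133 FPKM in irradiated libraries, with 1 of 8, Ugt8a, called lower and 0 higher (limma). The 6 markers of oligodendrocyte precursors summed to 28.1 to 32.4 FPKM in the mock mice and 7.48 to 17.7 FPKM in irradiated libraries, with 4 of 6 lower. The 9 astrocyte markers summed to 1801 to 2037 FPKM in the mock mice and 1264 to 1525 FPKM in irradiated libraries, with 2 of 9, Aqp4 and S100b, lower. Aldoc was the largest part of the astrocyte sum in every library, and its mean was 0.627 times the mock mean without a call. That of S100b was 0.411 times. Aldoc, S100b, Aqp4 and Slc1a3 were lower without overlap, while Gfap, Aldh1l1, Slc1a2, Gja1 and Gjb6 overlapped. Means of the astrocyte markers Gfap, Aldh1l1 and Slc1a2 were 1.19, 1.18 and 1.30 times the mock means and that of the precursor marker Cspg4 was 1.10 times, none of them called. None of these markers was listed at 0 in any library. Their part in the Fgfr2 difference was not tested.

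Fgfr3, the receptor most typical of astrocytes, was the most abundant receptor in every library and overlapped fully between the groups. It was at 56.4, 44.7 and 60.4 FPKM in the mock mice, against 44.0, 61.7 and 40.0 FPKM in the irradiated mice (log2 change -0.16, 95% interval -0.64 to 0.31, limma adjusted p = 0.65). Fgfr1, the main receptor of neurons, was at 38.5, 32.0 and 34.2 FPKM in the mock mice, against 28.1, 27.9 and 23.8 FPKM in the irradiated mice. Its groups did not overlap, and the log2 change of -0.38 did not pass (SE 0.15, adjusted p = 0.16). For Fgfrl1, a receptor without a kinase domain, the log2 difference was -0.45 (SE 0.21, limma adjusted p = 0.22), and mock 2 at 9.88 FPKM lay among the irradiated libraries at 8.83, 9.81 and 10.8 FPKM.

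As shares of the summed receptor RNA, Fgfr2 took 16.6%, 14.8% and 12.9% in mock libraries and 11.6%, 9.50% and 9.11% in irradiated ones, without overlap. Fgfr1 took 31.5% to 35.6% in mock and 28.2% to 34.4% in irradiated libraries. Fgfr3 took 49.6% to 55.5% and 53.9% to 62.3%. The receptor total overlapped, at 90.1 to 113.8 FPKM in the mock mice and 70.2 to 99.1 FPKM in irradiated libraries.

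The adaptor and the inhibitors were not called. Besides Fgf2 and Fgfr2, the tested members Fgf10, Fgf14, Fgf22, Fgfr1, Fgfr3 and Spry1 share exonic bases with a gene on the opposite strand, from 82 (Fgf22 and Rnf126) to 998 (Fgfr3 and G630022F23Rik), so their values may hold reads of that gene if strand was not used. Frs2, which links activated FGF receptors to the relay, was at 10.5, 9.25 and 7.07 FPKM in the mock mice, against 4.71, 8.25 and 6.09 FPKM in the irradiated mice, with overlapping groups (log2 change -0.48, SE 0.23, limma adjusted p = 0.24). Of the 6 feedback inhibitors 5 were tested, and 0 passed (limma, with 0 at an unadjusted p under 0.05). All 5 overlapped between the groups, and their median log2 change was -0.09.

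Spry1, a Sprouty protein, varied least, at 4.95, 5.37 and 5.16 FPKM in the mock mice, against 4.66, 5.04 and 4.79 FPKM in the irradiated mice (log2 change -0.09, 95% interval -0.43 to 0.25). Spred1, an inhibitor that recruits the RAS regulator neurofibromin, was close to it with a log2 change of -0.09 (95% interval -0.45 to 0.26), at 20.7 to 23.0 FPKM in the mock mice and 18.2 to 23.5 FPKM in irradiated libraries. For Spry2, the most abundant Sprouty gene here, the log2 difference was -0.28 (95% interval -0.81 to 0.26). Spred2 and Spry4 varied most within the irradiated group. Spred2, a relative of Spred1, was at 9.53 FPKM in irradiated 1 and at 21.5 and 21.6 FPKM in the other 2 irradiated libraries (log2 change -0.20, 95% interval -0.93 to 0.52), while Spry4 was at 2.79, 4.08 and 1.24 FPKM (log2 change -0.04, 95% interval -0.77 to 0.69). The sign of these small changes was not fixed: quantile normalization turned those of Spry1 and Spry4 positive (0.023 and 0.091), leaving out irradiated 1 turned that of Spred2 (0.18), and leaving out irradiated 3 turned that of Spry4 (0.34).

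Genes that FGF-MAPK signalling is known to induce gave 2 calls among 11 tested, both lower, or 18.2% against 7.72% of all genes tested. Of the 11 changes 8 were positive, as were 7032 of all 14585 genes tested. Wholly above mock lay 3 of the 11, against 13.7% of all genes tested, and wholly below it 2, against 17.7%. Dusp5, a nuclear phosphatase that inactivates ERK, was at 20.6, 23.9 and 19.6 FPKM in the mock mice, against 7.61, 6.36 and 6.50 FPKM in the irradiated mice, far apart and tight in both groups (log2 change -1.58, SE 0.16, limma adjusted p = 0.0011). Etv1, an ETS transcription factor that cerebellar granule cells also express strongly, fell from a mean of 35.6 ± 6.61 FPKM to one of 18.4 ± 1.65 FPKM (SD, n = 3), by 0.91 on the log2 scale (adjusted p from limma = 0.021). It was not called without mock 1 (adjusted p = 0.082), mock 2 (0.068) or irradiated 3 (0.072), nor with mock 2 and irradiated 1 both left out (0.054).

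Dusp6, Etv4 and Etv5, widely used as readouts of FGF receptor activity, were not called. These 3 genes were chosen after their values were seen. Dusp6, a cytoplasmic ERK phosphatase, was at 12.8, 8.06 and 12.6 FPKM in the mock mice, against 15.0, 18.4 and 13.0 FPKM in the irradiated mice, separated by a small margin (log2 change 0.47, 95% interval -0.04 to 0.97, limma adjusted p = 0.23). The log2 difference of Etv5, an ETS factor of the same group as Etv1, was 0.23 (95% interval -0.28 to 0.73), and that of Etv4, another of that group, was -0.06 (95% interval -0.54 to 0.43; 0.062 with quantile normalization). Ccnd1, which encodes the cell cycle protein cyclin D1, was at 11.5 ± 0.986 FPKM in mock and 16.9 ± 1.66 FPKM after irradiation (SD, n = 3), without overlap. Its log2 difference was 0.53 (SE 0.15, limma adjusted p = 0.073), and it was called with median centring and with library weights. The median log2 change over the 11 tested response genes was 0.31.

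Of the 19 relay genes, 0 were called (limma), against 7.72% of all genes tested. At an unadjusted p under 0.05, 4 were above and 4 below mock. Of all 14585 genes tested, 1705 were above and 2033 below at that threshold. The smallest p belonged to Mapk3, which encodes the kinase ERK1, at 97.8, 84.3 and 122 FPKM in the mock mice, against 187, 129 and 208 FPKM in the irradiated mice (log2 change 0.77, SE 0.23, adjusted p = 0.080). Without irradiated 2 it was called (limma adjusted p = 0.046), but not under the other 15 of 16 alternatives (up to 0.26). Map2k1, the kinase that activates it, differed by 0.58 on the log2 scale (SE 0.18, limma adjusted p = 0.085) without overlap of the groups.

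Among 18 extracellular partners of FGFs, 1 rose and 1 fell, or 11.1% against 7.72% of all genes tested. Gpc4, a glypican, that is, a heparan sulfate proteoglycan anchored to the membrane, was at 2.68, 1.28 and 2.68 FPKM in the mock mice, against 6.58, 7.51 and 11.0 FPKM in the irradiated mice, a mean ratio of 3.78 (log2 change 1.73, SE 0.28, limma adjusted p = 0.0098). The groups lay far apart, with mock 2 the lowest and irradiated 3 the highest library. Sdc1, a syndecan, a proteoglycan that spans the membrane, fell from a mean of 2.52 ± 0.285 FPKM to one of 0.934 ± 0.290 FPKM (SD, n = 3), by 1.09 on the log2 scale (adjusted p from limma = 0.016), and was not called without mock 1 (0.069), mock 3 (0.056) or irradiated 3 (0.069). Of 16 heparan sulfate genes, 1 was called, or 6.25% against 7.72% of all genes tested. It was the sulfotransferase gene Ndst3, which fell from 7.46 ± 2.08 to 3.27 ± 0.707 FPKM (log2 change -1.06, SE 0.24, limma adjusted p = 0.033). That call was lost without mock 1 (adjusted p = 0.105), mock 2 (0.105), irradiated 1 (0.051), irradiated 2 (0.051) or irradiated 3 (0.084), with mock 2 and irradiated 1 both left out (0.071) and with no filter (0.066). Over all 5 lists of other pathway genes, 2 of 72 tested were higher and 5 were lower, or 9.72%, against 7.72% of all genes tested, with a median log2 change of 0.03.

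The 12 members below the filter stayed at or under 0.469 FPKM in every library. Fgf8, an organizer of the embryonic midbrain and hindbrain, and Spry3 were listed at 0 in all 6 libraries. Fgf4 and Fgf6, both known from embryonic and muscle tissue, were listed at 0 in all but 1 library each. The endocrine ligands Fgf15, Fgf21 and Fgf23, which act as hormones of bile acid, energy and phosphate balance, reached 0.0891, 0.210 and 0.356 FPKM at most. Fgf20, a ligand known for supporting dopamine neurons, was listed at 0 in mock 1 and mock 2 and was at 0.0471 FPKM in mock 3, against 0.241, 0.260 and 0.0456 FPKM in irradiated libraries. Klb, the co-receptor that the Fgf21 hormone needs, was the 1 member of these 12 whose groups did not overlap, at 0.0357, 0.116 and 0.0679 FPKM in the mock mice, against 0.154, 0.135 and 0.180 FPKM in the irradiated mice. With no filter none of the 12 was called (limma, smallest adjusted p = 0.14, for Fgf20), and 2 of them had no value to test.

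Fgf16 and Fgf17 were highest in the libraries with high olfactory bulb markers. Fgf16, of the Fgf9 subfamily, was at 0.438, 0.0804 and 0.315 FPKM in the mock mice, against 0.399, 0.122 and 0.140 FPKM in the irradiated mice. Fgf17, of the Fgf8 subfamily, was at 0.430, 0.186 and 0.356 FPKM in the mock mice, against 0.469, 0.209 and 0.280 FPKM in the irradiated mice. For both, the highest libraries were mock 1, mock 3 and irradiated 1, the same 3 in which the olfactory bulb factor Tbx21 stood at 3.50, 3.37 and 6.25 FPKM, against 0.0608 FPKM at most in the others. Fgfr4, at 0.184 FPKM or less, was the 1 further member with the same 3 libraries on top. This pattern held for 3 of the 35 members, all of them below the filter. It was noticed in the values and was not tested, and its share over all genes was not counted.

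**Figure D4:**
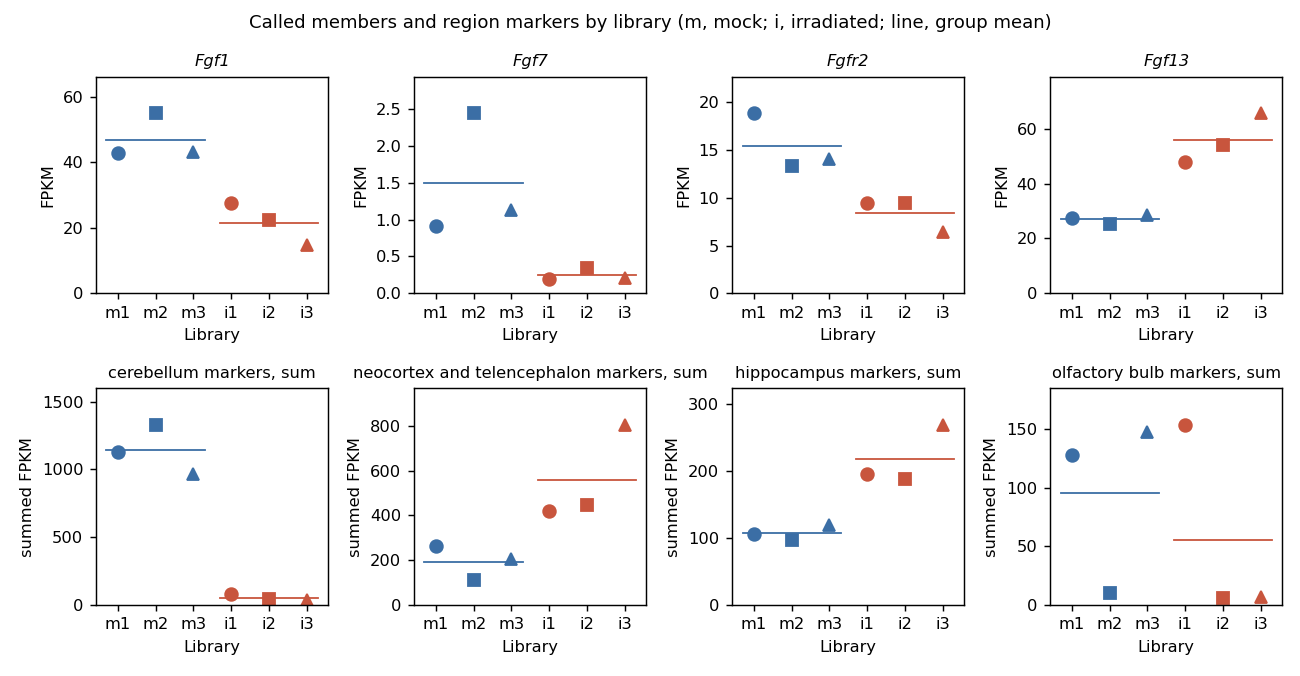
FPKM of the called members Fgf1, Fgf7, Fgfr2 and Fgf13 (top row) and summed FPKM of region markers (bottom row) in each library, with lines at the group means and axes from 0. The cerebellar sum is 966 to 1330 in mock and at most 76.7 in irradiated libraries, while the olfactory bulb sum is high in mock 1, mock 3 and irradiated 1.

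Mock libraries themselves differed in regional markers, so the called members are also given within that group. Mock 2, whose 7 telencephalic markers summed to 111 FPKM against 261 and 203 FPKM in mock 1 and mock 3, had the highest Fgf1 (55.0 FPKM) and Fgf7 (2.44 FPKM) of all libraries. It also had the highest cerebellar sum (1330 FPKM, against 1129 and 966 FPKM) and the highest thalamic sum (83.7 FPKM, against 59.2 and 60.2 FPKM) of the mock group. Its Fgf13, at 25.4 FPKM, differed little from the 27.5 and 28.6 FPKM of mock 1 and mock 3. Its Fgfr2, at 13.3 FPKM, lay just below the 14.0 FPKM of mock 3.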

How the data were processed

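Whole-brain RNA of 3 mock and 3 irradiated mice was depleted of ribosomal RNA, made into stranded libraries and sequenced from 1 end, per the labels' protocols. The deposited FPKM were made by the authors. The submitters' processing notes name TopHat, Cufflinks, Cuffdiff and mm10, while versions, settings, annotation and scaling totals were not given in the sources used here. After 1 leftover header line was removed, the table held 23057 genes. FPKM are not counts, and among genes under 0.05 FPKM no ratio to mock 1 was shared by more than 1.28% of genes, so read numbers could not be recovered.

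Genes averaging 0.5 FPKM or more were tested with limma 3.58.1 (R 4.3.3). Values entered as log2(FPKM + 0.5), the model held only the group, the prior variance followed the mean, and two-sided p-values were adjusted by Benjamini-Hochberg over all genes tested. A call is an adjusted p under 0.05. The procedure was tested on simulated data. Figures were drawn with matplotlib 3.10.9. Positions and upstream sequences are RefSeq's (GRCm38.p6). An upstream sequence was listed for 26 of the 35 members. Exon overlaps are from GENCODE M21.

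The members, gene lists and marker lists were chosen with earlier results of these data known. All members are accounted for. Of each other pathway list the text names every called gene, or the 2 with the smallest p where none was called. Scn1a, Scn2a, Scn3a, Scn8a, Ccnd1, Dusp6, Etv4 and Etv5, and the single markers named, were chosen after their values were seen. Alternatives were leaving out each library, leaving out mock 2 and irradiated 1 together, a block for replicate number, pseudocounts of 0.1 and 1, no filter, a minimum mean of 1 FPKM, quantile normalization, median centring, library weights and robust empirical Bayes.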

Additional observations from a re-analysis of the deposited data

How the results depend on the processing

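Over the fits that left out 1 library, the number of members called higher stayed at 1, the number called lower 0 to 5, and the numbers of other pathway genes called higher and lower 2 to 3 and 1 to 5. Under the 10 other alternatives each of these counts was within 1.5 times its main value. Over all 14585 genes tested, the fits that left out 1 library called 148 to 671 higher and 254 to 684 lower. Of 366 log2 changes of the 23 tested members under the alternatives, 337 kept direction and call, 16 (Fgf1, Fgf7 and Fgfr2) lost the call, 7 (Fgf2, Fgf9 and Fgf18) gained one, and 6 changed sign, all of inhibitors that were not called. These were Spred1 with mock 2 and irradiated 1 left out together (0.022), Spred2 in that fit (0.058) and without irradiated 1 (0.18), Spry1 (0.023) and Spry4 (0.091) with quantile normalization, and Spry4 without irradiated 3 (0.34). Etv4 also changed sign with quantile normalization (0.062) and without irradiated 2 (0.12). With 1 library left out, log2 changes ranged from -0.39 to 0.18 for Spred2, from -0.36 to 0.34 for Spry4 and from -0.25 to 0.12 for Etv4. The causes were not tested. With a mean of at least 1 FPKM, Fgf5 and Fgf7 were not tested.

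Replicate numbers in the labels are not tied to a litter, cage or day. Deviations from the group means correlated by -0.33, 0.19 and 0.20 between equal numbers, so the numbers were not taken as pairs. With the replicate block 1 member was higher and 2 were lower (Fgf1 and Fgf7, while Fgfr2 had an adjusted p of 0.062), and 2 other pathway genes were higher and 4 lower (Ndst3 had an adjusted p of 0.056). The read depth behind low members such as Fgf7 is unknown.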
